A study of Homo sapiens with 22 samples.

Results

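The change in translational efficiency after 2 h of tunicamycin was examined in LN308, an established glial cell line of astrocytoma origin without functional p53. Translational efficiency is the level of ribosome footprints on an mRNA relative to the level of that mRNA. Its change is the log2 change in footprints (Ribo-Seq) minus the log2 change in RNA (RNA-Seq), so a negative value means that footprints gained less, or lost more, than the RNA did. The genes described are the 10842 protein-coding genes, of 58278 gene entries counted, that could be tested in both assays and had a mean of at least 50 counts over the 6 RNA-Seq and over the 6 Ribo-Seq samples. They were taken from 19239 protein-coding entries, of which 13406 could be tested. At the lower edge MED17, with a mean of 50 footprint counts, was kept (efficiency change -0.27), and HYKK, with 49.8, was left out (0.23).

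The comparison used 12 of the 22 samples of the study: 3 untreated samples at 0 h and 3 samples at 2 h of tunicamycin (2.5 µg/ml, dissolved in DMSO) in each assay. By their labels the 0 h samples had no treatment, while the protocol text speaks of DMSO as control; a 2 h vehicle sample was not used here. For Ribo-Seq the cells also received cycloheximide at 0.1 mg/ml for 5 min before lysis, and fragments of 27 to 33 nt were taken from 80S monosomes. Whether the replicates were grown as separate cultures is not stated, so a p-value here reflects the spread among these samples only, and that spread may be technical. In such bulk samples fewer cells with an RNA and less of it per cell cannot be told apart, and without a stated strand setting neither can overlapping or antisense genes.

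Tunicamycin blocks the first step of N-linked glycosylation, and unfolded glycoproteins then collect in the endoplasmic reticulum (ER). The ER sensor kinase PERK phosphorylates the initiation factor eIF2, which lowers initiation on most mRNAs, while mRNAs with short upstream open reading frames (uORFs), such as ATF4, DDIT3 and PPP1R15A, are known to keep or gain ribosomes. The other sensors, IRE1 and ATF6, raise the mRNAs of ER chaperones and of ER-associated degradation. mRNAs of ribosomal proteins and several translation factors begin with a terminal oligopyrimidine (TOP) tract, through which mTORC1 signalling sets their translation. Library sizes were scaled within each assay, so a change shared by all mRNAs is not visible here, and a gene's value is its change relative to the other genes.

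RNA-Seq samples held 101 to 138 M (mega) counts and Ribo-Seq samples 4.39 to 29.2 M. Untreated replicate 1 was the deepest Ribo-Seq sample and tunicamycin replicate 3 the shallowest. Replicate 1 stood apart from replicates 2 and 3: between the counts of replicates of 1 group, chi-square divided by its degrees of freedom was 417 to 543 for RNA-Seq pairs with replicate 1 and 45.2 to 52.3 for pairs without it, and for footprints 80.5 to 219 and 31.6 to 52.1. On the first principal component of the footprints, however, tunicamycin replicate 3 lay as far out (141) as untreated replicate 1 (-144), with tunicamycin replicate 1 at -76.6 and the other 3 samples at 18.5 to 38.7. Results are therefore given by replicate number, and with replicates 2 and 3 alone where that matters. Of 14 glial markers 9 passed the count minimum, with S100B, VIM, NES and CD44 abundant, while GFAP and AQP4, typical of mature astrocytes, had mean RNA levels of 1.69 and 0.14 CPM (counts scaled to a library total of 1 M). None of 10 blood markers passed, and their summed RNA level was 1.36 to 4.86 CPM in the 6 RNA-Seq samples. Of 10 epithelial markers the keratins KRT8 and KRT18 passed, and the summed RNA level of the 10 was 71.2 to 94.0 CPM, while EPCAM and CDH1 were at 0.31 and 0.27 CPM. The part of such cells in the results was not tested.

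The start of the transcript, where a TOP tract is read, is shown for ribosomal protein and translation factor genes and for genes with lower efficiency. RefSeq promoter sequences (GRCh38.p14) matched 9053 of the 10842 genes, and the first 20 bases after the first listed start are printed 5′ to 3′ on the gene's strand. Capitals mark a TOP start, a C at the first base followed by at least 4 pyrimidines.
RPS27 (chr1:153990762-153990781, plus strand): CCTTTCCggcggtgacgacc
RPSA (chr3:39406720-39406739, plus strand): CTTTTCCgtgctacctgcag
RPS6 (chr9:19380217-19380236, minus strand): CTCTTTTCCgtggcgcctcg
EEF1A1 (chr6:73521013-73521032, minus strand): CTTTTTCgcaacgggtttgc
EEF2 (chr19:3985444-3985463, minus strand): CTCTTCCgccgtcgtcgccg
HERPUD1 (chr16:56932142-56932161, plus strand): gccccagagacgtgaactgt
CTH (chr1:70411268-70411287, plus strand): gccgctttagtgcgctcgcc
DNAJB9 (chr7:108569874-108569893, plus strand): gaggtggtggcgccagcggc
ATF4 (chr22:39520559-39520578, plus strand): agccatttctactttgcccg
A TOP start was found in 41 of the 61 matched cytosolic ribosomal protein genes (67.2%) and in 10 of 13 translation factor genes of the TOP list, against 5.63% of all matched genes and 4.04% of the 27305 promoters in the table. None of the 10 genes with the smallest p among lower efficiencies had one. Of the higher efficiencies SHC2, NUDT22, BDH1, RAB3IL1 and MIPEP had none either. IFRD1, COPG2 and EIF4B had one, with efficiency changes of -0.60, -0.58 and -0.51. The ribosomal protein genes RPL9 and RPL3, whose starts are not printed, had none, with efficiency changes of -0.68 and -0.07.

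Promoter elements of the ER stress response are shown next, from the 250 bases before the start. The genes shown had a higher mean RNA level after tunicamycin. HERPUD1 alone passed the edgeR test in RNA, and HSPA5 RNA overlapped between the groups. Capitals mark the ER stress element (ERSE, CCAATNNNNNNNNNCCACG) in HSPA5 and XBP1, and the C/EBP-ATF response element (CARE, TGATGNAAN) in HERPUD1, CHAC1 and IARS1, where it lies on the opposite strand.
HSPA5 (chr9:125241381-125241419, minus strand): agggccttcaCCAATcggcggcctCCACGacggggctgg
XBP1 (chr22:28800593-28800631, minus strand): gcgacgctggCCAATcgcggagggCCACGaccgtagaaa
HERPUD1 (chr16:56931955-56931983, plus strand): gacgcggcggGTTGCATCAgcccgtgccc
CHAC1 (chr15:40953251-40953279, plus strand): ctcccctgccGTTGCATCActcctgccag
IARS1 (chr9:92293698-92293721, minus strand): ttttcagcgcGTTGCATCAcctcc
Both strands were searched. Of the genes named here, ATF3, PPP1R15B and SLC1A3 also had a CARE match. The RNA change of SLC1A3 was -1.86 ± 0.98. An ERSE was found in 6 of 27 matched ER chaperone genes, against 0.15% of all matched genes and 0.08% of all promoters, and a CARE in 3 of 22 PERK-ATF4 targets, against 1.34% and 3.18%. These are letter matches only, and CARE is written with N for any base. All motif counts were made after the efficiency values were known.

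Across the 10842 genes the changes in translational efficiency were small, and none passed the test. With edgeR's quasi-likelihood test of the interaction, 0% of the 18500 genes tested had an adjusted p under 0.05, and the smallest adjusted p was 0.9999. At an unadjusted p under 0.05 there were 740 of 18500 genes (4%, where 925 would be found with no change). Of the 10842 genes there were 97, 82 of them lower and 15 higher, where 542 would be found with no change. Both counts fell short of that number, so the test was conservative here. The lack of calls therefore does not show that efficiency was unchanged. With the replicate number as a block, 314 of these genes had an unadjusted p under 0.05. DESeq2 called 4 genes, of which HERPUD1 alone is among the 10842. The median SE of 1 gene's change was 0.43 on the log2 scale, so changes of that size were not detectable gene by gene.

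The direction of the whole distribution depended on the scaling. The median change was -0.07, with the quartiles at -0.29 and 0.15, and 58.2% of genes were below 0. With library sizes alone the median was 0.01, so classes are read against the median of all genes. Counts of class genes below 0 are to be read beside the 58.2% of all genes. Counts above 0 are to be read beside 4537 of 10842. The medians of 5 classes below 0 were above it on that scale: N-glycosylation (0.04), translation factors with TOP mRNAs (0.08), integrins and surface receptors (0.01), glycolysis (0.07) and solute carriers (0.01, from -0.07). By replicate number the medians were -0.20, 0.03 and -0.08. With replicates 2 and 3 alone the median of all genes was -0.01, and class medians from those replicates are to be read against that. The change was below 0 in 3 of 3 replicate numbers in 2192 of the 10842 genes (20.2%; 17.1% of all genes tested) and above 0 in 3 of 3 in 1316 (12.1%; 12.8% of all genes tested). Within 0.5 log2 units of 0 lay 86.0% of the genes, and 50 genes lay above 1 and 80 below -1. In 11 of those 50 and 36 of those 80, over 50% of the footprint CPM of the 6 samples came from 1 sample.

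The RNA and footprint changes that make up the efficiency were small for most genes as well. Only HERPUD1 passed in RNA (0.00541% of genes tested), and no gene passed in footprints (0%), both with edgeR. At an unadjusted p under 0.05 were 232 of the 10842 genes in RNA and 626 in footprints, and DESeq2 called 18 and 87 of all genes tested. With replicates 2 and 3 alone edgeR called 7 genes in RNA, among them CHAC1, EGR2 and CTH. With the replicate number as a block as well, an alternative chosen after the data were seen, it called 171 genes in RNA. Across the 10842 genes the footprint change and the RNA change had a Pearson r of 0.59 and a Spearman rho of 0.47, given as a description, since genes are not independent and share the libraries. Of 54 genes with an RNA change of 1 or more, 23 had a footprint change of 1 or more and 2 had a footprint change below 0. Their median RNA change was 1.25 and their median footprint change 0.92. Of 157 genes with an RNA change of -1 or less, 100 had a footprint change of -1 or less, and the medians were -1.30 and -1.26. The efficiency change contains the RNA change with its sign reversed, so the lower efficiencies among the first set are in part fixed by that choice.

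**Figure D1:**
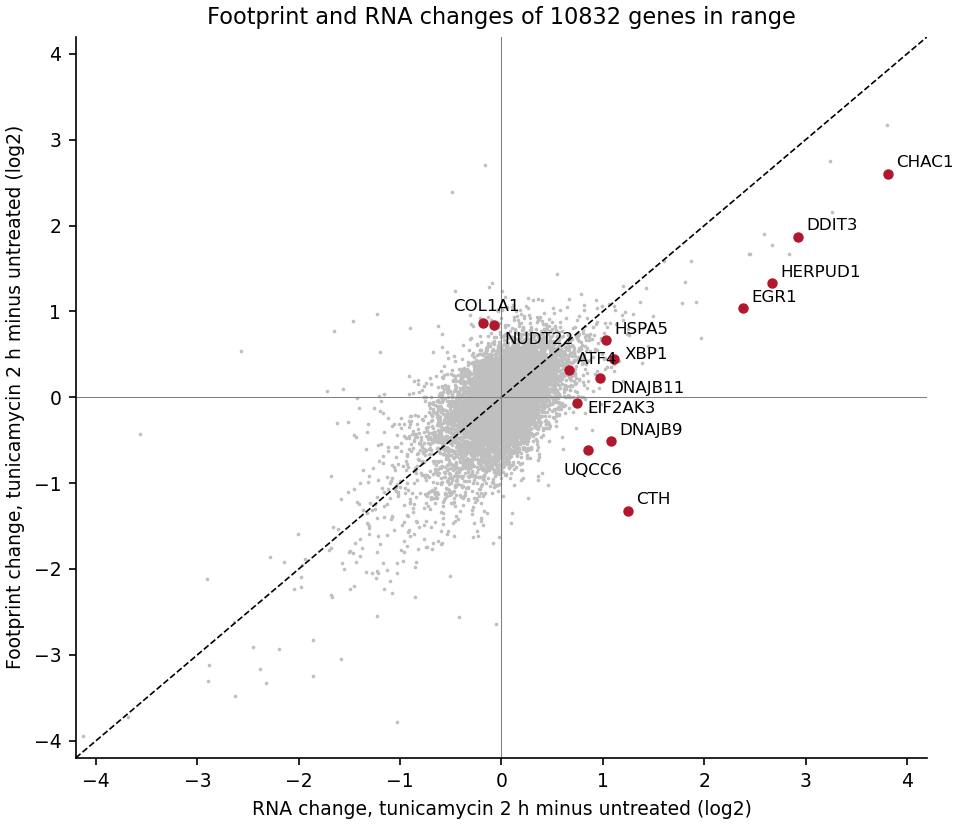
Footprint change (vertical) against RNA change (horizontal), both log2 tunicamycin 2 h minus untreated, for the 10832 genes within 4.2 of 0 on both axes (10 lie outside). On the dashed line both changes are equal. HERPUD1, DDIT3, CHAC1 and EGR1 lie to the right of it, and CTH, DNAJB9 and UQCC6 have RNA changes above 0 with footprint changes below 0.

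HERPUD1, an ER membrane protein of the degradation machinery, was the only gene whose RNA rise passed the test over all replicates, and its footprint change was smaller. Its RNA was 44.7, 42.1 and 42.9 CPM in untreated replicates 1, 2 and 3 and 209, 320.2 and 298 CPM after tunicamycin. Its footprints were 63.1, 66.9 and 53.9 CPM untreated and 171, 119 and 172 CPM after tunicamycin. The groups did not overlap in either assay, which held for 9.05% of all genes tested in RNA and 6.36% in footprints. RNA rose by 2.67 ± 0.24 (log2 ± SE; edgeR adjusted p = 4.42e-05), the footprint change was 1.33 ± 0.23, and the efficiency change was -1.35 ± 0.32, an edgeR unadjusted p of 0.000543 and an adjusted p of 0.9999. Efficiency was lower in 3 of 3 replicate numbers (-0.78, -2.10 and -1.13). Over the 23 alternatives it stayed between -1.60 and -1.19, and its adjusted p was 0.023 with DESeq2.

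CTH, the cystathionine gamma-lyase that makes cysteine, differed in opposite directions in the 2 assays. Its RNA was 5.78, 2.61 and 3.36 CPM untreated and 5.60, 11.1 and 11.2 CPM after tunicamycin, so that only replicates 2 and 3 were higher. Its footprints were 7.47, 2.30 and 2.70 CPM untreated and 2.13, 1.28 and 1.69 CPM after tunicamycin, lower in every sample than any untreated one. CTH had a mean of 51.3 footprint counts, just over the count minimum. The highest level was in untreated replicate 1, the deepest Ribo-Seq sample. The gap between the groups, 2.30 against 2.13 CPM, was small and rested on few counts. The efficiency change was -2.57 ± 0.61, and it was -2.71 with replicates 2 and 3 alone but -1.76 without Ribo-Seq untreated replicate 1.

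DNAJB9 and DNAJB11, J-domain co-chaperones of the ER chaperone BiP, had more RNA without a matching gain of footprints. DNAJB9 RNA was 25.7, 17.5 and 16.9 CPM untreated and 35.1, 48.0 and 44.0 CPM after tunicamycin. DNAJB9 footprints were 36.8, 19.5 and 11.8 CPM untreated and 12.8, 22.3 and 12.8 CPM after tunicamycin, so these groups overlapped. The efficiency change of DNAJB9 was -1.59 ± 0.47, and it was -1.02 without Ribo-Seq untreated replicate 1. That of DNAJB11 was -0.75 ± 0.27. DNAJB11 RNA was 50.7 to 61.8 CPM untreated and 106 to 116 CPM after tunicamycin, while its footprints were 88.2 to 106 and 102 to 139 CPM.

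The other genes among the 10 with the smallest p in this direction had no role in the ER in common. They were UQCC6, an assembly factor of respiratory complex III (-1.47 ± 0.41), INPP5B, an inositol phosphate phosphatase (-0.87 ± 0.27), TOPORS, a ubiquitin and SUMO ligase (-1.07 ± 0.35), and the zinc finger genes RLF (-0.75 ± 0.28), ZNF407 (-0.77 ± 0.29) and ZNF20. For UQCC6 the RNA was 9.12 to 10.6 CPM untreated and 16.7 to 18.9 CPM after tunicamycin, and the footprints were 5.84 to 8.98 and 2.42 to 6.01 CPM. INPP5B differed mainly in footprints, with 50.0, 37.8 and 32.0 CPM untreated and 25.1, 30.2 and 22 CPM after tunicamycin, which did not overlap. The value of ZNF20, -5.94 ± 1.53, rested on untreated replicate 1, where its footprints were 24.1 CPM against 0 to 1.50 CPM elsewhere, and it was -2.65 without that sample. Each of these genes was lower in 3 of 3 replicate numbers.

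**Figure D2:**
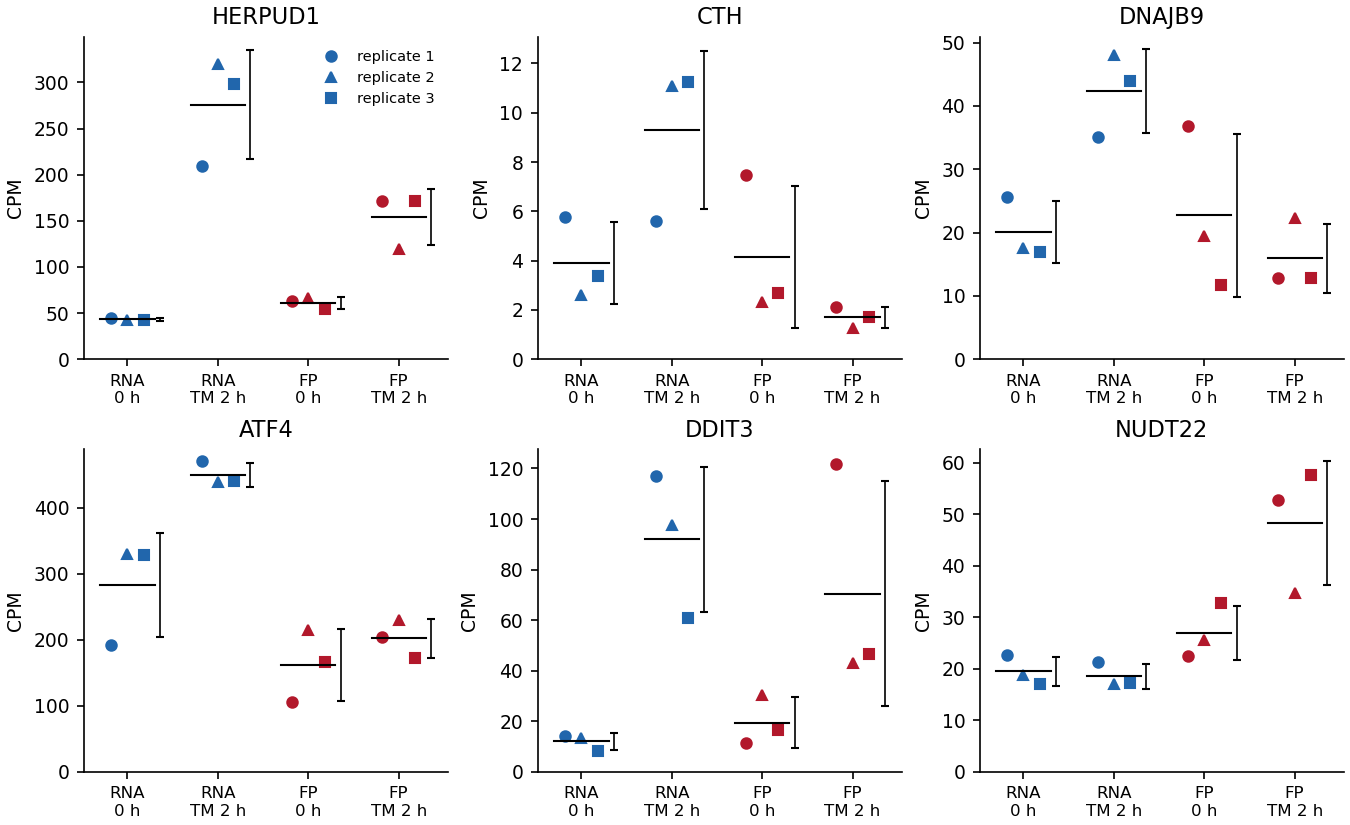
CPM of 6 genes in each sample (vertical axis, from 0): RNA-Seq (RNA, blue) and Ribo-Seq footprints (FP, red), untreated (0 h) and after 2 h of tunicamycin (TM 2 h). Symbols stand for the replicate number, horizontal lines for the mean of 3 and bars for the SD. HERPUD1 RNA separates fully, CTH and DNAJB9 footprints do not follow their RNA, and NUDT22 is higher in footprints alone.

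The mRNAs with regulatory uORFs had a median efficiency change below that of all genes. None of them was higher at an edgeR unadjusted p under 0.05, but only 15 of all 10842 genes were. Of 18 genes 13 were below 0 and 5 above, with a median of -0.31, against -0.07 for all genes, and 0 passed the test. Below the median of all genes were 12 of 18. The medians by replicate number were -0.18, -0.34 and -0.18. In 3 of 3 numbers 8 of 18 genes were lower, against 20.2% of all 10842 genes. The median stayed between -0.46 and -0.10 over the alternatives, the highest without RNA-Seq untreated replicate 1. The list as a whole had a median RNA change of 0.56 and a median footprint change of 0.16. The counts hold 1 value per gene entry. Footprints on a uORF and on the main coding sequence could therefore not be told apart, and a shift between them was not tested.

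ATF4, the transcription factor at the centre of this pathway, had more RNA in each treated sample than in any untreated one. Its RNA was 192, 329.6 and 328 CPM untreated and 470.2, 438 and 440.5 CPM after tunicamycin. Its footprints were 105, 214 and 167 CPM untreated and 203, 230.3 and 172 CPM after tunicamycin, which overlapped. The efficiency change was -0.35 ± 0.37, and by replicate number it was -0.34, -0.31 and -0.38. DDIT3, the pro-apoptotic factor CHOP, had RNA of 8.31 to 14.3 CPM untreated and 60.9 to 117 CPM after tunicamycin, and footprints of 11.3 to 30.5 and 43.0 to 122 CPM. Neither assay overlapped, but the efficiency by replicate number was 0.41, -2.35 and -1.38, with a joint value of -1.06 ± 0.67.

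The phosphatase subunits that reverse eIF2 phosphorylation had values within about 1 SE of 0, and their difference was not tested. PPP1R15A (GADD34) had a change of 0.00052 ± 1.12 and PPP1R15B (CReP) one of -0.43 ± 0.36. PPP1R15A footprints were 28.4, 335 and 305 CPM untreated and 130.4, 371 and 685 CPM after tunicamycin, with replicate 1 far below the others in both groups. Of the other uORF genes IFRD1 was at -0.60 ± 0.28, the tRNA synthetase EPRS1 at -0.57 ± 0.32, IBTK at -0.56 ± 0.45, the stress sensor SESN2 at -0.77 ± 0.78, SLC35A4 at 0.09 ± 0.33 and ATF5 at -0.02 ± 0.83.

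The sensors of ER stress and their transcription factors leaned to lower efficiency. Of 13 genes of the sensors and their transcription factors 11 were below 0, with a median of -0.35 and medians of -0.34, -0.17 and -0.26 by replicate number. Below the median of all genes were 9 of 13. EIF2AK3, which encodes PERK, had RNA of 25.7, 24.8 and 27.3 CPM untreated and 31.0, 46.3 and 52.8 CPM after tunicamycin. Its footprints were 34.9, 22.9 and 25.1 CPM untreated and 22.9, 25.7 and 31.2 CPM after tunicamycin. RNA was higher in every treated sample and footprints overlapped, and the efficiency change was -0.81 ± 0.32. XBP1, the transcription factor made by IRE1 splicing, was at -0.66 ± 0.32, and CREB3L2 at -0.04 ± 0.60. Of 12 genes for eIF2 kinases and phosphatase subunits 9 were below 0, with a median of -0.24; the inhibitor DNAJC3 was at -0.52 ± 0.30 and the catalytic subunit PPP1CB at -0.51 ± 0.48.

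PERK-ATF4 targets and immediate early genes, the first mRNAs made after many stimuli, had the lowest class medians together with the sensors and their transcription factors. The lists share genes, so their medians are not separate results. ATF3 is in both of these lists, and DDIT3 is in the sensor list and the uORF list. PPP1R15A is among the PERK-ATF4 targets, the uORF genes and the phosphatase subunits. Of 27 PERK-ATF4 targets 20 were below 0, with a median of -0.35, a median RNA change of 0.62 and a median footprint change of 0.35. Of 33 immediate early genes 27 were below 0, with a median of -0.36, a median RNA change of 0.93 and a median footprint change of 0.67. No gene of either list passed the test.

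These 2 classes differed between replicate numbers. The efficiency medians of PERK-ATF4 targets were -0.14, -0.54 and -0.30, and those of immediate early genes were 0.12, -0.84 and -0.17. Replicate 1 had no gain in immediate early RNA (median -0.06), against 1.09 and 1.24 in replicates 2 and 3. The immediate early median ran from -1.29 without Ribo-Seq tunicamycin replicate 3 to 0.17 without RNA-Seq tunicamycin replicate 3, so its sign rested on that sample. That of PERK-ATF4 targets ran from -0.52 to -0.07, the latter without RNA-Seq untreated replicate 1.

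Single genes of these classes had wide errors. EGR1, a zinc finger transcription factor, had RNA of 319, 104 and 47.3 CPM untreated and 124, 1003 and 1326 CPM after tunicamycin. EGR1 footprints were 1071, 287 and 167 CPM untreated and 765, 507 and 1875 CPM after tunicamycin. Tunicamycin replicate 1 was below untreated replicate 1 in both assays, while replicates 2 and 3 were above theirs in both. The efficiency changes were -1.34 ± 1.25 for EGR1, -1.16 ± 0.86 for EGR2, -1.10 ± 1.03 for ATF3, 0.01 ± 0.99 for IER5 and -1.20 ± 0.97 for CHAC1, the glutathione-degrading enzyme induced by ATF4. CHAC1 RNA was 1.37 to 6.30 CPM untreated and 32.0 to 73.3 CPM after tunicamycin, and its footprints were 1.32 to 24.8 and 57.8 to 118 CPM, with no overlap in either assay.

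**Figure D3:**
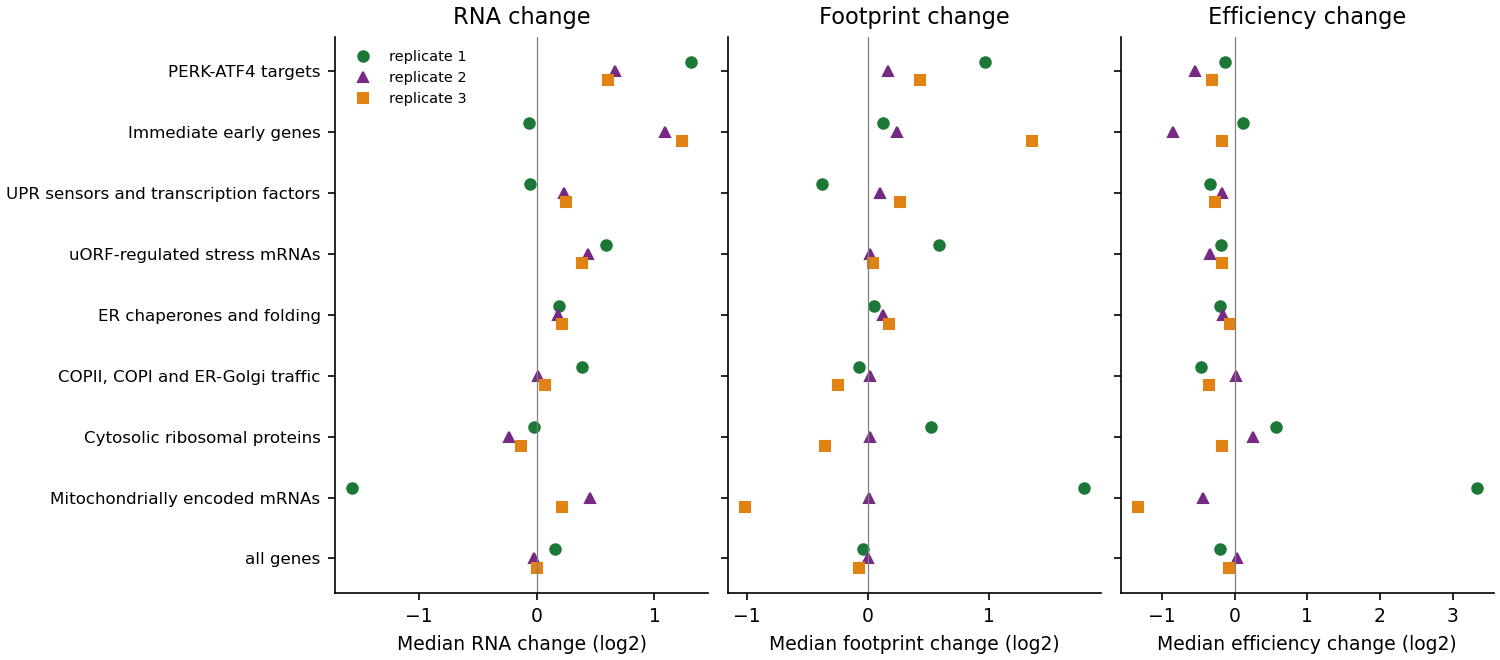
Median RNA, footprint and efficiency change (log2, tunicamycin 2 h minus untreated of the same replicate number) of 8 gene classes and of all genes, with a symbol for each replicate number. Immediate early RNA is above 1 in replicates 2 and 3 only, and the mitochondrially encoded mRNAs spread from -1.33 to 3.33 in efficiency.

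Genes of vesicle traffic had the lowest median among the classes of the secretory pathway, and those of N-glycosylation (-0.04) were above the median of all genes (-0.07). Of 45 genes of the COPII and COPI coats and of ER-Golgi traffic 35 were below 0, with a median of -0.30. By replicate number the medians were -0.45, 0.02 and -0.35. With replicates 2 and 3 alone the median was -0.15, against -0.01 for all genes. USO1, a tether of ER-derived vesicles, was at -0.88 ± 0.44, the coat subunit COPG2 at -0.58 ± 0.42 (-0.036 without Ribo-Seq untreated replicate 1), the cargo receptor LMAN1 at -0.51 ± 0.31 and the GTPase ARF1 at -0.03 ± 0.32. USO1 footprints were 95.5, 30.4 and 45.4 CPM untreated and 39.95, 32.1 and 25.7 CPM after tunicamycin, and the value was -0.27 without untreated replicate 1.

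ER chaperones as a class differed little from all genes. Of 31 genes 19 were below 0, with a median of -0.12, a median RNA change of 0.17 and a median footprint change of 0.20. Below the median of all genes were 17 of 31. HSPA5, which encodes BiP, the main ER chaperone, had RNA of 616, 1000.4 and 1149 CPM untreated and 751, 2462 and 2442 CPM after tunicamycin. HSPA5 footprints were 478, 565 and 676 CPM untreated and 779.5, 767 and 1180 CPM after tunicamycin. The footprints did not overlap while the RNA did, and the efficiency change was -0.37 ± 0.59, with 0.42, -0.86 and -0.28 by replicate number. Genes of ER-associated degradation had a median of -0.13 (17 of 25 below 0), those of ER translocation -0.16 (28 of 35) and those of N-glycosylation, the pathway tunicamycin blocks, -0.04 (25 of 42). Below the median of all genes were 15 of 25, 23 of 35 and 19 of 42.

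Amino acid genes and tRNA synthetases, many of them ATF4 targets, had medians below that of all genes (-0.07). Of 29 genes of amino acid synthesis and transport 19 were below 0 (median -0.18), and of 23 cytosolic tRNA synthetase genes 17 were (median -0.17). SLC38A2, a neutral amino acid transporter, had RNA of 592 to 686 CPM untreated and 965 to 1143 CPM after tunicamycin, with footprints of 325 to 447 and 368 to 436 CPM. Its RNA did not overlap and its footprints did, and its efficiency change was -0.66 ± 0.31. The cystine transporter SLC7A11 was at -0.71 ± 0.57, the synthetases IARS1 and LARS1 at -0.56 ± 0.33 and -0.45 ± 0.34, and AIMP1 of the synthetase complex at -0.01 ± 0.43. The class medians were -0.05 and -0.11 with replicates 2 and 3 alone, against -0.01 for all genes.

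Cytosolic ribosomal proteins had the highest median of the nuclear-encoded classes with at least 3 genes, but not in every replicate number. Of 77 genes 64 were above 0, with a median of 0.28, a median RNA change of -0.13 and a median footprint change of 0.14, and 0 passed the test. By replicate number the medians were 0.57, 0.25 and -0.17, so replicate 3 went the other way. The median was -0.10 without Ribo-Seq tunicamycin replicate 1 and 0.02 with replicates 2 and 3 alone. For all genes these medians were -0.10 and -0.01. Of the 77 genes 21 were higher in 3 of 3 replicate numbers, against 12.1% of all 10842 genes.

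The ribosomal protein genes with the highest values rested on replicate 1. RPS27 had footprints of 36, 13.2 and 21.5 CPM untreated and 107, 17.0 and 18.4 CPM after tunicamycin, and RPSA, which also binds laminin, had 90.3, 54.2 and 99.8 CPM and 394, 55.8 and 38.7 CPM. Only replicate 1 was clearly higher after tunicamycin. The efficiency changes were 1.04 ± 1.14 for RPS27, 0.86 ± 0.87 for RPSA, 0.10 ± 0.41 for RPS6, -0.07 ± 0.32 for RPL3, -0.68 ± 0.59 for RPL9 and -0.0032 ± 0.37 for RPS2. Many ribosomal protein genes have near-identical processed copies, with which short footprints can be shared, so their counts are uncertain; RPS3A, with a mean of 29561 RNA-Seq counts and 37.5 Ribo-Seq counts, did not reach the minimum.

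Translation factors with TOP mRNAs had a median near 0 over all replicates. Of 19 genes 8 were above 0 and 11 below, with a median of -0.03. It was 0.04 with replicates 2 and 3 alone, where ribosomal proteins had 0.02, and 0.37 without Ribo-Seq untreated replicate 1, where they had 0.39. The difference between the 2 lists was not tested. EEF2, which moves the ribosome along the mRNA, was at 0.27 ± 0.36, EEF1A1, which brings aminoacyl-tRNA, at -0.05 ± 0.48, the nucleolar protein NPM1 at 0.81 ± 0.69, EIF4B at -0.51 ± 0.59, HNRNPA1 at -0.50 ± 0.35 and EIF3L at -0.01 ± 0.47. Genes outside both lists that held a TOP start had a median of -0.05 (459 genes), against -0.07 for those without one (8520). The 40 other initiation and elongation factors had a median of -0.09.

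Mitochondrially encoded mRNAs, translated on ribosomes of their own inside mitochondria, had the widest spread between replicate numbers. Of 13 genes 11 were above 0, with a median of 0.28, but the medians by number were 3.33, -0.43 and -1.33, and the median was -0.68 with replicates 2 and 3 alone. In RNA the median change was -1.57 in replicate 1 and 0.45 and 0.22 in the others. MT-CO1, a core subunit of cytochrome oxidase, had footprints of 1293, 4102 and 7034 CPM untreated and 4753, 4482 and 20126 CPM after tunicamycin. MT-ND5, a complex I subunit, had 1316, 3840.4 and 3001 CPM and 6985, 3789.9 and 1776 CPM. The 2 genes thus went in opposite directions in replicate 3, and the efficiency changes were 1.23 ± 0.90 and 0.51 ± 1.05; those of MT-ND4L and MT-ND3 were 0.61 ± 0.92 and -0.01 ± 0.73.

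Nuclear-encoded mitochondrial classes had medians above that of all genes (-0.07). Mitochondrial ribosomal proteins had a median of 0.10 (50 of 75 above 0), and it was 0.00 with replicates 2 and 3 alone. In that class MRPS31 was at -1.14 ± 0.65, MRPS24 at 0.85 ± 0.80, MRPL19 at -0.64 ± 0.50 and MRPL46 at 0.0009 ± 0.40. Respiratory chain subunits had a median of 0.03 (41 of 74 above 0), with NDUFB5 of complex I at -0.69 ± 0.54 and the ATP synthase subunits ATP5ME, ATP5F1D and ATP5F1C at 0.60 ± 0.47, 0.59 ± 0.57 and -0.00048 ± 0.57.

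The remaining classes, apart from the glial markers, had medians of -0.17 to 0.08, on both sides of the median of all genes (-0.07). Medians were 0.08 for replication-dependent histones (9 of 16 above 0), 0.07 for collagens and extracellular matrix (21 of 36), 0.01 for proteasome subunits (16 of 31), -0.02 for glycolysis (8 of 17), -0.07 for cytosolic heat shock chaperones and for integrins and surface receptors, -0.11 for cell cycle genes, and -0.15 for cholesterol and fatty acid synthesis. Autophagy genes had -0.17, and the 9 glial markers -0.33, which was 0.11 with replicates 2 and 3 alone. Secreted matrix proteins, which pass through the stressed ER, varied: COL1A1 was at 1.05 ± 0.81, the fibronectin gene FN1 at 0.10 ± 0.58, LAMB1 at -0.0017 ± 0.38, VCAN at -0.71 ± 0.50 and LUM at -0.78 ± 0.50.

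Single genes of these classes stayed within their errors or little beyond. In glycolysis ENO2 was at 0.73 ± 0.59, ALDOA at 0.36 ± 0.43, HK2 at -0.02 ± 0.59 and PGAM1 at -0.37 ± 0.47. Among proteasome subunits PSMD7 was at 0.36 ± 0.45, PSMA7 at 0.01 ± 0.41, PSMD6 at -0.35 ± 0.35 and PSMA2 at -0.43 ± 0.57. Among histones H1-2 was at 0.40 ± 0.57, H2BC12 at 0.28 ± 0.52, H4C3 at 0.01 ± 0.53 and H2BC4 at -0.27 ± 0.56. Among glial markers the surface receptor CD44 was at 0.08 ± 0.66, GLUL, which makes glutamine, at -0.43 ± 0.43, FABP7 at -0.50 ± 0.88 and the glutamate transporter SLC1A3 at -1.38 ± 1.42.

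**Figure D4:**
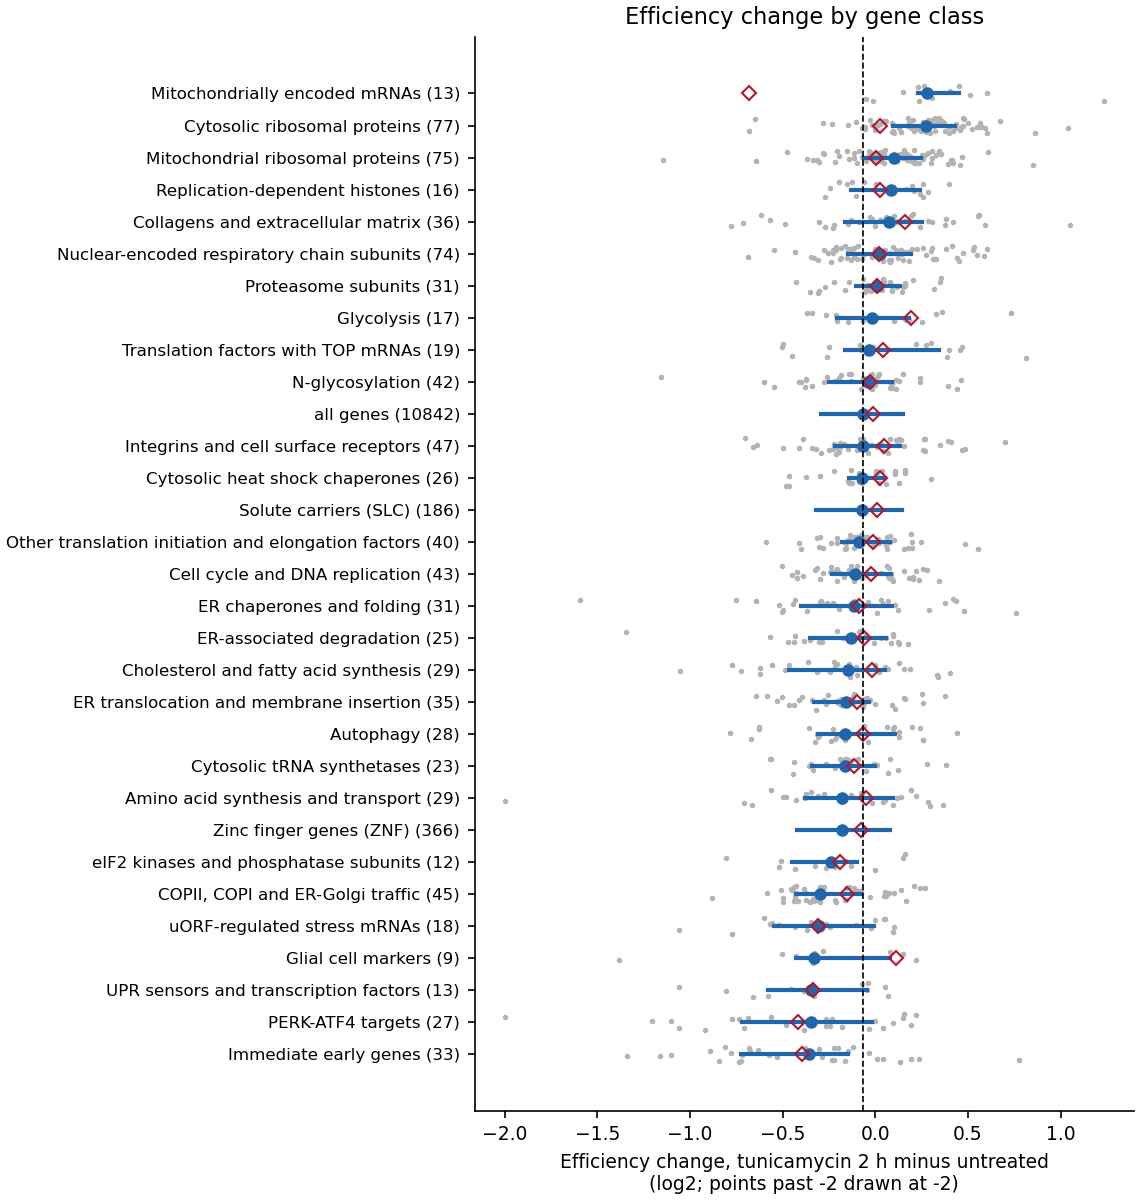
Efficiency change (log2, horizontal) of the genes of each class with at least 3 genes (number in brackets). Grey points are genes (CTH, past -2, is drawn at -2), left out for the 2 largest families and for all genes, blue circles and bars the median and the interquartile range of the class, red diamonds the median with replicates 2 and 3 alone, and the dashed line the median of all genes. The dashed line is from all replicates, and with replicates 2 and 3 alone the median of all genes was -0.01. Diamonds of ribosomal proteins (0.02) and of mitochondrially encoded mRNAs (-0.68) lie away from their circles (both 0.28), those of uORF mRNAs (both -0.31) do not.

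Only 15 genes had a higher efficiency at an unadjusted p under 0.05, and NUDT22 and FBXL15 are described as examples. NUDT22, a Nudix hydrolase, had RNA of 22.7, 18.8 and 17.1 CPM untreated and 21.4, 17.0 and 17.3 CPM after tunicamycin. Its footprints were 22.5, 25.6 and 32.8 CPM untreated and 52.8, 34.7 and 57.6 CPM after tunicamycin. The RNA overlapped, the footprints did not, and the efficiency change was 0.92 ± 0.32, an edgeR unadjusted p of 0.0114. FBXL15, an F-box protein of a ubiquitin ligase, had footprints of 7.37 to 10.2 CPM untreated and 11 to 22.8 CPM after tunicamycin, with an efficiency change of 1.13 ± 0.44.

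Other genes with small p-values in this direction were R3HCC1 (0.78 ± 0.33), RAB3IL1, an exchange factor for Rab proteins (1.12 ± 0.50), MIPEP, a mitochondrial peptidase (1.06 ± 0.48), PINX1, an inhibitor of telomerase (1.40 ± 0.59), TIRAP, an adaptor of Toll-like receptors (1.03 ± 0.43), BDH1, an enzyme of ketone body metabolism (1.16 ± 0.52), and SHC2. SHC2, a signalling adaptor, had 348 footprint CPM in tunicamycin replicate 2 and 0.66 to 8.71 CPM elsewhere; its change of 6.14 ± 1.86 was 1.41 without that sample. BDH1 was at 0.45 and TIRAP at 1.51 with replicates 2 and 3 alone. TIRAP was at -0.09 in replicate 1 and BDH1 at -0.02 in replicate 2, while R3HCC1, RAB3IL1, MIPEP, PINX1, SHC2, NUDT22 and FBXL15 were above 0 in 3 of 3.

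Efficiency changes were ordered by the length of the gene. Genes were split into 4 equal groups by the span from start to end in RefSeq, introns included, a feature chosen after the data were seen. The median change was 0.07 for genes up to 13393 bases, -0.03 and -0.12 for the middle groups, and -0.19 for genes of 81076 bases or more. The share of genes below 0 was 42.0% in the first group and 71.8% in the last. The order was the same in each replicate number, from 0.00 to -0.34 in replicate 1, 0.08 to -0.03 in replicate 2 and 0.07 to -0.22 in replicate 3.

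Abundance gave a similar order with less agreement between replicate numbers. From the lowest to the highest quartile of mean RNA-Seq counts, the medians were 0.04, -0.03, -0.09 and -0.15. In replicate 2 they were 0.02, 0.03, 0.03 and 0.03, so no order was seen there. By mean Ribo-Seq counts they were -0.01, -0.08, -0.08 and -0.08. Spread was widest for thinly covered genes: 3.06% of the lowest quartile of footprint counts lay past 1 in either direction, against 0.44% of the highest. The part of gene length, abundance and scaling in the class medians was not tested.

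**Figure D5:**
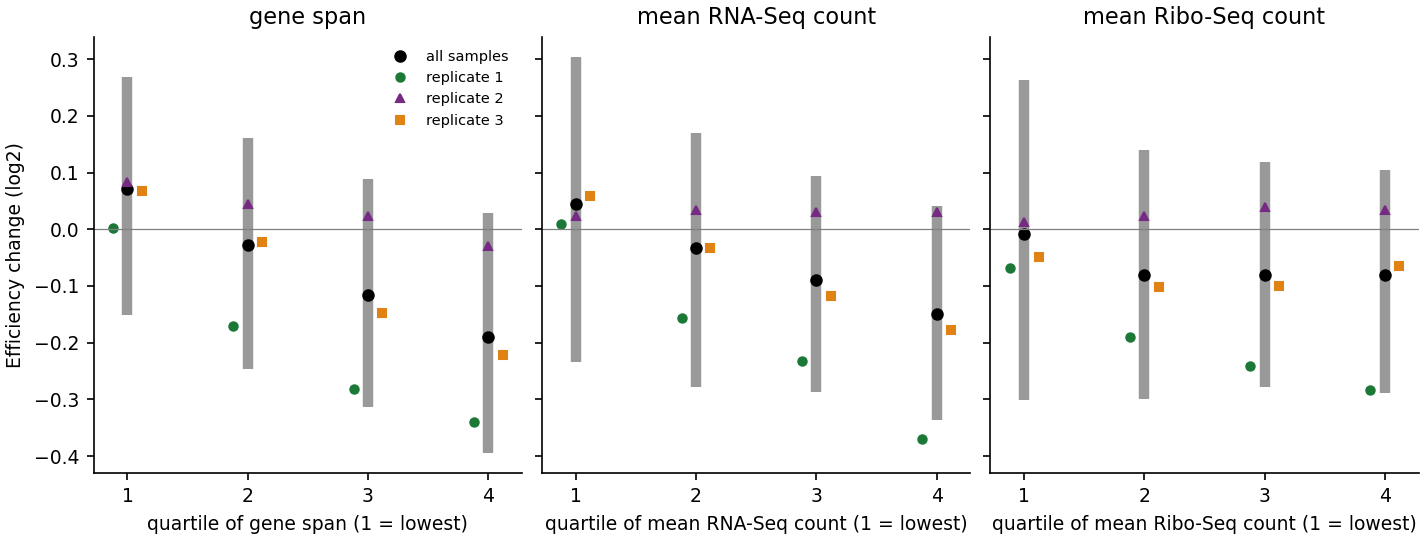
Efficiency change (log2, vertical) by quartiles of gene span, mean RNA-Seq count and mean Ribo-Seq count (1 is the lowest). Black points and grey bars give the median and the interquartile range of about 2710 genes, coloured symbols the medians by replicate number. Medians go from 0.07 to -0.19 with gene span.

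The comparison at 6 h of tunicamycin shares the untreated samples, so its values are given side by side with those at 2 h only. HERPUD1 was at -1.35 ± 0.32 at 2 h and -0.34 ± 0.32 at 6 h, CTH at -2.57 ± 0.61 and -0.79 ± 0.57, and DNAJB9 at -1.59 ± 0.47 and -0.69 ± 0.47. UQCC6 was at -1.47 ± 0.41 and -1.34 ± 0.40, and NUDT22 at 0.92 ± 0.32 and 0.48 ± 0.32. The difference between the times was not tested.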

How the data were processed

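RNA-Seq and Ribo-Seq counts per gene were used as the authors deposited them, raw and 1 value per gene entry. Per the submitters' processing notes STAR 2.5.4b, HTSeq, DESeq2 and GRCh38 were used; what each was used for, the gene models and strandedness were not given in the sources used here. Totals were 101 to 138 M counts for RNA-Seq and 4.39 to 29.2 M for Ribo-Seq. Groups followed the labels.

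A joint edgeR 4.0.16 quasi-likelihood model (R 4.3.3) was fitted to all 22 libraries, with filterByExpr (minimum count 10) and TMM within each assay, so that all groups share 1 estimate of the spread. The interaction gave the efficiency change, with Benjamini-Hochberg adjustment over 18500 genes. SEs are the size of the change divided by the root of F. Values by replicate number are differences of log2 CPM with a prior count of 2. Protein-coding status came from RefSeq (GRCh38.p14); entries without a RefSeq match were left out. The script was tested on simulated data with known changes. The alternatives were other scalings, no filter, the 12 samples alone, a replicate block, samples left out, and DESeq2 1.42.0.

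Named were every called gene, the 10 with the smallest unadjusted p in each direction, the 3 largest and the 1 smallest change of the outer lists, and a fixed set of stress, translation and matrix genes; RPS3A was named after its values were seen, and some results under this rule are not reported here. The genes and the 30 lists were chosen with earlier results of these data known, so their counts and medians are descriptions. Same-numbered samples deviated together, with correlations of 0.12 to 0.38 (RNA-Seq), 0.17 to 0.19 (Ribo-Seq) and 0.14 to 0.41 (between assays). Pairs of number 1 with another number were all below 0. Number 2 with number 3 gave 0.09 to 0.11 (RNA-Seq), -0.04 to -0.01 (Ribo-Seq) and 0.11 to 0.25 (between assays). Deviations were taken from group means and sum to 0 in each group, which in part fixes the values below 0. Outside Ribo-Seq the check did not clearly pair numbers 2 and 3. The labels do not say what a number stands for. Protein features were planned and not run, since protein sequences were not used here.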

Additional observations from a re-analysis of the deposited data

How the results depend on the processing

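The count of genes with a called efficiency change was 0 in all alternatives with edgeR and 4 with DESeq2 (1 higher). In RNA the count of 1 became 2 without the filter on low counts, 2 without either group's first replicates in both assays, 7 with replicates 2 and 3 alone, 18 with DESeq2 and 171 with the replicate block on replicates 2 and 3, and it ran from 1 to 3 when single samples were left out. In footprints the count of 0 became 1 with that last block and 87 with DESeq2. The replicate block over all replicates left 0 efficiency calls, and 314 of the genes had an unadjusted p under 0.05, against 97 without it; over all alternatives that number ran from 34, with the 12 samples alone, to 813. The block changed no other call. Of the class medians, 640 values stayed within the spread between replicate numbers and 60 moved. Of 94 named genes 34, each with a change smaller than its SE except GLUL and NPM1, took the other sign under some setting; the cause was not tested. Without Ribo-Seq untreated replicate 1 the efficiency change was -0.049 for LARS1, -0.065 for IBTK, -0.016 for RPL9, -0.17 for VCAN, -0.27 for LUM and -0.40 for MRPS31. Without Ribo-Seq tunicamycin replicate 3, the shallowest sample with 4.39 M counts, it was -2.37 for ATF3, -1.61 for SESN2 and 0.15 for MT-CO1. With replicates 2 and 3 alone it was -1.93 for DDIT3 and -0.69 for TOPORS.

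TMM over both assays gave log2 efficiency changes of -0.010 for IER5, -0.025 for PPP1R15A, 0.0041 for ATP5F1C and -0.0045 for MRPL46.
No filter on low counts gave log2 efficiency changes of -0.070 for IER5, -0.058 for PPP1R15A, -0.00051 for CD44, -0.11 for PSMA7, -0.12 for H4C3, -0.14 for MRPL46, -0.020 for SLC35A4, -0.069 for RPS6 and -0.030 for FN1.
The replicate block gave log2 efficiency changes of -0.081 for IER5, 0.082 for CREB3L2, 0.0098 for ARF1, 0.064 for AIMP1, 0.029 for EIF3L, 0.051 for HK2, 0.020 for LAMB1, -0.016 for H4C3, 0.090 for RPS2, 0.013 for RPL3 and 0.079 for EEF1A1.
Library size alone gave log2 efficiency changes of -0.015 for PPP1R15A, 0.0068 for CREB3L2, 0.031 for ARF1, 0.079 for AIMP1, 0.11 for EIF3L, 0.067 for HK2, 0.11 for ATP5F1C, 0.091 for LAMB1, 0.067 for RPS2, 0.086 for MT-ND3, 0.029 for RPL3 and 0.039 for EEF1A1.
Leaving out both untreated first replicates gave log2 efficiency changes of -0.034 for PPP1R15A, 0.10 for CREB3L2, 0.087 for FABP7, 0.067 for ARF1, 0.076 for AIMP1, 0.17 for EIF4B, 0.23 for EIF3L, 0.31 for HK2, 0.21 for PSMA2, 0.049 for ATP5F1C, 0.058 for LAMB1, -0.089 for MRPL46, 0.033 for ATF5, 0.080 for RPL3 and 0.079 for EEF1A1.
Replicates 2 and 3 alone gave log2 efficiency changes of 0.11 for FABP7, -0.16 for CD44, 0.26 for EIF4B, 0.37 for HK2, -0.036 for PSMA7, 0.17 for LAMB1, -0.034 for H4C3, -0.54 for RPSA, 0.064 for RPS2, -0.37 for MT-ND4L, -0.62 for MT-ND5 and 0.27 for EEF1A1.
The replicate block with replicates 2 and 3 alone, chosen after the data were seen, gave log2 efficiency changes of 0.093 for FABP7, -0.15 for CD44, 0.016 for ARF1, 0.055 for AIMP1, 0.29 for EIF4B, 0.39 for HK2, -0.018 for PSMA7, 0.18 for LAMB1, -0.069 for H4C3, -0.44 for RPSA, 0.080 for RPS2, -0.34 for MT-ND4L, -0.71 for MT-ND5, 0.0076 for RPL3 and 0.29 for EEF1A1.
Leaving out both tunicamycin first replicates gave log2 efficiency changes of -0.30 for CD44, 0.050 for HK2, -0.070 for PSMA7, 0.11 for LAMB1, -0.029 for H4C3, -0.72 for RPSA, 0.27 for RPS2, -0.54 for MT-ND4L, -0.57 for MT-ND5, -0.14 for SLC35A4 and 0.15 for EEF1A1.
The 12 compared samples alone gave log2 efficiency changes of 0.011 for ARF1, 0.044 for AIMP1, 0.046 for EIF3L, 0.030 for HK2, 0.055 for ATP5F1C, 0.055 for LAMB1, 0.047 for RPS2, 0.021 for MT-ND3 and 0.0068 for EEF1A1.
DESeq2 size factors gave log2 efficiency changes of 0.00092 for AIMP1, 0.0098 for HK2, 0.0021 for ATP5F1C, 0.025 for LAMB1, 0.016 for RPS2 and 0.0018 for ATF5.
DESeq2's own test gave log2 efficiency changes of 0.0019 for AIMP1, 0.013 for HK2, 0.024 for LAMB1 and 0.015 for RPS2.
With single samples left out the values ran from -0.65 to 0.46 for IER5, -0.65 to 0.49 for PPP1R15A, -0.41 to 0.27 for CREB3L2, -3.76 to 0.66 for SLC1A3, -1.39 to 1.00 for FABP7, -0.76 to 0.12 for GLUL, -0.28 to 0.45 for CD44, -0.20 to 0.18 for ARF1, -0.41 to 0.31 for AIMP1, -0.28 to 1.18 for NPM1, -0.85 to 0.53 for EIF4B, -0.50 to 0.40 for EIF3L, -0.29 to 0.41 for HK2, -0.95 to 0.16 for PSMA2, -0.12 to 0.63 for PSMD7, -0.24 to 0.24 for PSMA7, -0.65 to 0.36 for ATP5F1C, -0.29 to 0.26 for LAMB1, -0.057 to 0.53 for H2BC12, -0.53 to 0.17 for H2BC4, -0.34 to 0.32 for H4C3, -0.14 to 0.18 for MRPL46, -0.38 to 1.99 for RPS27, -0.92 to 1.33 for RPSA, -0.19 to 0.14 for RPS2, -0.078 to 1.03 for MT-ND4L, -0.072 to 0.88 for MT-ND5, -0.41 to 0.44 for MT-ND3, -0.43 to 0.46 for ATF5, -0.086 to 0.32 for SLC35A4, -0.23 to 0.23 for RPL3, -0.24 to 0.35 for RPS6, -0.20 to 0.18 for EEF1A1 and -0.22 to 0.35 for FN1.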

Other observations

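Zinc finger genes, many of which encode DNA-binding repressors, were the largest family with a median below that of all genes. Of 366 genes 243 were below 0 and 123 above, with a median efficiency change of -0.18 against -0.07 for all genes, a median RNA change of -0.07 and a median footprint change of -0.23. By replicate number the efficiency medians were -0.36, 0.01 and -0.19. In 3 of 3 numbers 88 of the 366 genes were lower and 27 higher, against 20.2% and 12.1% of all 10842 genes. With replicates 2 and 3 alone the median was -0.08, against -0.01 for all genes. An edgeR unadjusted p under 0.05 was found for 11 of the 366, all lower, and none passed after adjustment. Of all 10842 genes 97 had such a p, 82 of them lower.

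Solute carriers, a family of membrane transporters taken by gene symbol, stayed at the median of all genes. Of 186 genes 105 were below 0 and 81 above, with a median of -0.07, which was 0.01 with replicates 2 and 3 alone. For all genes the median with those replicates was -0.01. Both families were chosen after the data were seen.

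Within the ribosomal protein genes, those with a TOP start had a median of 0.32 and those without one 0.22. By replicate number these medians were 0.64, 0.28 and -0.16 with a TOP start and 0.36, 0.17 and -0.30 without. Genes with a CARE match, 121 in all, had a median of -0.23, against -0.07 for those without. By replicate number the medians were -0.33, -0.01 and -0.24 with a match and -0.20, 0.03 and -0.08 without. In replicate 1 the cell cycle genes had a median RNA change of 1.35, against -0.04 and 0.13 in replicates 2 and 3.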
